A study of Arabidopsis thaliana with 12 samples.

Results

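The genes described here encode the enzymes that break down glucosinolates in Arabidopsis thaliana and the proteins that steer the products. They are the myrosinase genes TGG1 (AT5G26000) and TGG2 (AT5G25980), the nitrile-specifier protein genes NSP1 (AT3G16400), NSP2 (AT2G33070), NSP3 (AT3G16390), NSP4 (AT3G16410) and NSP5 (AT5G48180), the epithiospecifier protein gene ESP (AT1G54040) and the epithiospecifier modifier gene ESM1 (AT3G14210). The set of 9 genes is defined by locus identifier, and all 9 were found among the 33323 loci of the count table. Of the 9 genes, 7 had enough counts to be tested, as had 19059 of all loci, while NSP2 and NSP3 did not.

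RNA was sequenced from whole rosettes, without roots, of soil-grown plants 25 days old, in 4 genotypes with 3 libraries each, each library made from about 10 plants pooled. The jazD cdk8-1 line combines the mutations of both other mutant lines. The jazD line is a higher-order jaz mutant, in which JAZ1 through JAZ7 as well as JAZ9, JAZ10 and JAZ13 are mutated; JAZ proteins repress the genes that jasmonate induces. The cdk8-1 line is mutant at CDK8, the kinase gene of the Mediator complex, and Col-0 is the wild type. The series asks, by its title, what CDK8 contributes to defence gene expression in jazD. The labels name 1 line per genotype, with no second allele, and no treatment.

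Glucosinolates are sulfur-containing glucosides of the Brassicaceae, stored apart from myrosinase, the thioglucosidase that hydrolyses them. In rosettes, TGG1 and TGG2 are known from guard cells and from myrosin cells along the phloem, and tissue damage brings enzyme and substrate together. The aglucone that myrosinase releases rearranges to an isothiocyanate, the toxic mustard oil, unless a specifier protein diverts it: NSP proteins direct it to simple nitriles and ESP to epithionitriles and nitriles. ESM1 favours the isothiocyanate over the nitrile, and Col-0 is known as an accession with little ESP activity.

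TGG1 and TGG2 are neighbours on chromosome 5, TGG1 at chr5:9079452-9082384 on the minus strand and TGG2 at chr5:9072708-9075777 on the plus strand, with 12 exons each (RefSeq annotation of TAIR10.1). Their starts face away from each other, and 3674 bases and 2 other loci lie between the genes. Their coding sequences were 82.7% identical over aligned bases. The 300 bases before each annotated start are shown because the pair differed in their response to cdk8-1 with intact JAZ genes (described with the levels of TGG2). They cover chr5:9082385-9082684 on the minus strand for TGG1 and chr5:9072408-9072707 on the plus strand for TGG2, and capitals mark the stretches of at least 12 bases that occur in both.
TGG1: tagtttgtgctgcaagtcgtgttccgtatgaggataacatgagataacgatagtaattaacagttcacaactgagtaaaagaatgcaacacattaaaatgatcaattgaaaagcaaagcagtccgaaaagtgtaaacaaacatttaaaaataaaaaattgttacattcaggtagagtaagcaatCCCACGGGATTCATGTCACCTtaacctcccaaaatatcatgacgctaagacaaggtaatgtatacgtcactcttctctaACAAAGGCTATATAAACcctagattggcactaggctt
TGG2: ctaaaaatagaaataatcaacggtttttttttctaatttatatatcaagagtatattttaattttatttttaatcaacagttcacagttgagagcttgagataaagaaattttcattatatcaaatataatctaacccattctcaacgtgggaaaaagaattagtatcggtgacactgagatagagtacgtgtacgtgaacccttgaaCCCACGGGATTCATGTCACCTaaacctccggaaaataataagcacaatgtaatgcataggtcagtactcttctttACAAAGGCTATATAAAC
The pair shared a stretch of 21 bases, at −116 to −96 from the TGG1 start and at −92 to −72 from the TGG2 start. A second one, of 17 bases, lay at −37 to −21 from the TGG1 start and at −17 to −1 from the TGG2 start.

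In the same windows of all 9 genes, 3 motifs were searched on both strands. The G-box (CACGTG), a site known for MYC-type bHLH factors, occurred in none of the 9 windows and in 7.1% of 27443 promoters of that length. The related T/G-box (AACGTG) occurred in TGG2, at −156 from the start, and in NSP3, at −154, and in 8.7% of promoters. The GCC box (GCCGCC), known for ERF factors, occurred in none of the 9 windows and in 2.3% of promoters. Other windows and looser forms of these motifs were not searched.

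NSP3 (chr3:5562400-5564574), NSP1 (chr3:5566083-5568545) and NSP4 (chr3:5571903-5574758) lie in a row on the plus strand of chromosome 3. NSP1 and NSP4 were 95.0% identical over aligned coding bases and shared an exact stretch of 366 bases, and NSP1 and NSP3 were 92.2% identical with a longest exact stretch of 68 bases. NSP2 (chr2:14028282-14031164), NSP5 (chr5:19540937-19542760), ESP (chr1:20170715-20173949) and ESM1 (chr3:4729399-4731847) lie apart. None of the 9 genes overlaps another annotated locus. The likeness of sequence bears on the counts, which the authors' tool divides among similar genes. NSP1 and NSP4 had fractional counts in 12 of 12 libraries, whereas their sum was whole in 12 of 12 (within 0.015 of a whole number), so reads were divided between them and their separate values are less certain than their sum. For TGG1 and TGG2 this happened in 2 of 12 libraries.

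Total counts ranged from 17583467 to 21030374 per library, and log2 CPM of libraries of the same genotype correlated at 0.990 to 0.993 across loci. CDK8, the targeted gene, had 49, 69 and 71 counts in jazD cdk8-1 and 46, 53 and 55 in cdk8-1, against 388, 409 and 339 in jazD and 335, 370 and 406 in Col-0, as the labels say. Levels within a gene are given as CPM, counts scaled to library size with TMM factors, and levels between genes as the authors' TPM, which are also scaled to transcript length. Changes are log2 fold changes ± an approximate standard error, and a gene counts as called where p, adjusted by Benjamini and Hochberg over the tested loci, was under 0.05. In bulk rosettes, a smaller share of myrosin or guard cells and less RNA per such cell cannot be told apart.

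TGG1 was the most abundant of the genes in every genotype. It had 12465, 13228 and 12349.5 CPM in jazD cdk8-1, 7620.5, 7056 and 7310.1 CPM in jazD, 6507, 6295 and 6145 CPM in cdk8-1, and 4991, 4627 and 5107 CPM in Col-0. The 4 genotypes did not overlap, and every mutant library lay above all those of Col-0. TGG1 rose 1.49-fold in jazD over Col-0 (0.58 ± 0.05, adjusted p = 7.13e-09, edgeR) and 1.29-fold in cdk8-1 over Col-0 (0.36 ± 0.05, adjusted p = 1.38e-05, edgeR). It rose 1.73-fold in jazD cdk8-1 over jazD (0.79 ± 0.05, adjusted p = 8.38e-11, edgeR) and 2.58-fold over Col-0 (1.37 ± 0.05, adjusted p = 1.27e-14, edgeR). The effect of cdk8-1 was larger in jazD than with intact JAZ genes, by 0.43 ± 0.07 on the log2 scale (adjusted p = 0.000252 for the interaction, edgeR). In jazD cdk8-1, TGG1 alone made up 1.28% ± 0.0430 of all counts, against 0.484% ± 0.0198 in Col-0 (SD, n = 3 each).

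TGG2 followed another pattern. It had 4705, 4656 and 4549 CPM in jazD cdk8-1, 5458, 4763 and 5046 CPM in jazD, 1016, 1093 and 966 CPM in cdk8-1, and 2994, 2749 and 3024 CPM in Col-0. The cdk8-1 libraries were the lowest by far, and those of both lines with the jazD mutations were the highest. TGG2 fell in cdk8-1 to 0.351 times its level in Col-0 (−1.51 ± 0.06, adjusted p = 1.01e-13, edgeR), and by adjusted p it stood in place 6 among all 19059 loci of that comparison. It rose 1.74-fold in jazD over Col-0 (0.80 ± 0.06, adjusted p = 1.93e-10, edgeR) and 4.52-fold in jazD cdk8-1 over cdk8-1 (2.18 ± 0.06, adjusted p = 3.22e-17, edgeR). Between jazD cdk8-1 and jazD it was not called (−0.13 ± 0.06, 95% interval −0.26 to −0.01, adjusted p = 0.0673, edgeR), and on the TPM scale the sign turned (0.01). That scaling moved the median of all loci in this comparison by 0.136 on the log2 scale, so TGG2 lay below the median of all loci there. The effect of cdk8-1 differed between jazD and plants with intact JAZ genes by 1.38 ± 0.08 (adjusted p = 6.99e-11 for the interaction, edgeR).

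**Figure D1:**
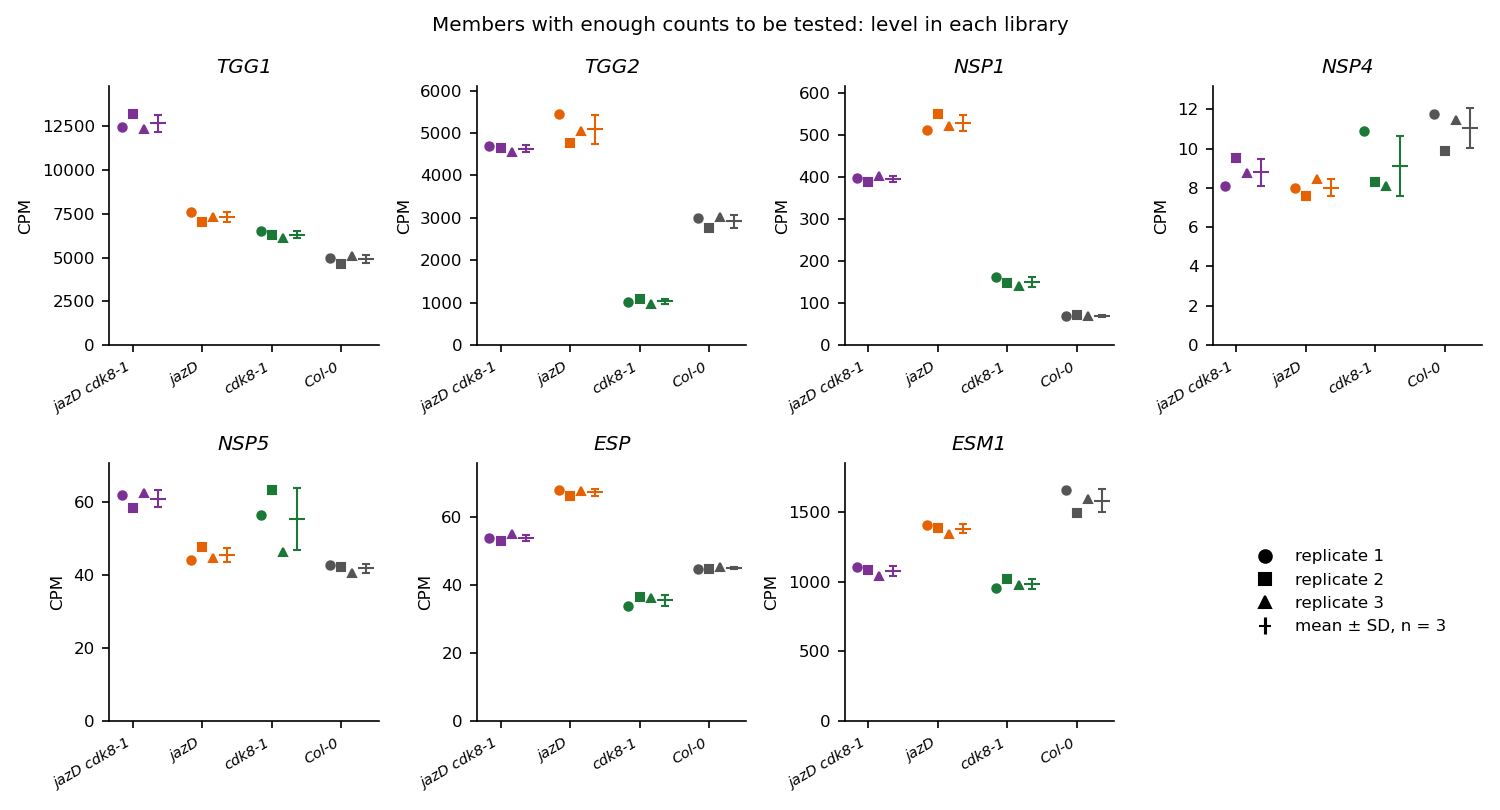
CPM (counts scaled to library size) of the 7 tested genes in each library, by genotype from jazD cdk8-1 to Col-0, with the mean and SD of 3 libraries at the right of each group and each vertical axis starting at 0. TGG1 was highest in jazD cdk8-1 at 12349.5 to 13228 CPM, TGG2 lowest in cdk8-1 at 966 to 1093 CPM, and NSP1 lowest in Col-0 at 67.7 to 71.4 CPM.

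Because the pair moved apart in cdk8-1, their sum behaved differently from either gene. TGG1 and TGG2 together reached 11345 ± 287 TPM in jazD cdk8-1, 7342 ± 247 TPM in jazD, 4879 ± 224 TPM in cdk8-1 and 4885 ± 146 TPM in Col-0 (SD, n = 3 each). The summed counts were not called in cdk8-1 against Col-0 (−0.09 ± 0.05, adjusted p = 0.211, edgeR), while TGG1 rose and TGG2 fell there. The sum rose in jazD over Col-0 (0.67 ± 0.05, adjusted p = 1.27e-09, edgeR), in jazD cdk8-1 over jazD (0.48 ± 0.05, adjusted p = 2.59e-07, edgeR) and over Col-0 (1.15 ± 0.05, adjusted p = 4.04e-13, edgeR). TGG2 made up 26.5% ± 0.690 of the summed TPM in jazD cdk8-1, 40.6% ± 0.722 in jazD, 13.8% ± 0.714 in cdk8-1 and 37.0% ± 0.156 in Col-0. The ranges of the 4 genotypes did not overlap. At jazD cdk8-1 the pair accounted for 1.13% ± 0.0287 of all TPM, against 0.488% ± 0.0146 in Col-0.

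**Figure D2:**
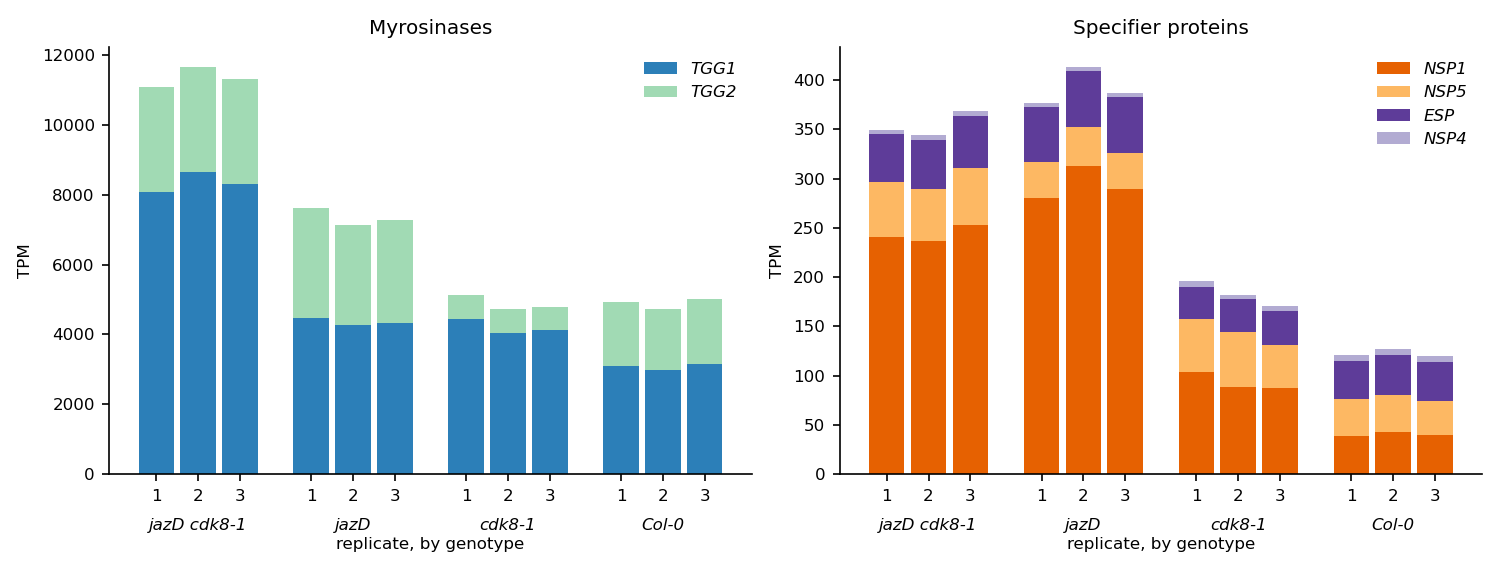
TPM (scaled to length and library size) stacked by gene in each of the 12 libraries, for the myrosinases TGG1 and TGG2 (left) and the specifier proteins NSP1, NSP5, ESP and NSP4 (right), with NSP2 and NSP3 left out because they stood at or under 0.39 TPM. The myrosinase stacks were highest in jazD cdk8-1 at 11073 to 11645 TPM, while the 5 NSP genes and ESP together were highest in jazD at 377 to 413 TPM.

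The other classical myrosinase genes TGG3, TGG4, TGG5 and TGG6, of which TGG4 and TGG5 are known from roots, were at 0 counts in all 12 libraries. Of the classical myrosinase genes, counts were found for TGG1 and TGG2 alone.

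NSP1 had the largest change of the 7 tested genes in jazD against Col-0. It had 398, 388 and 403 CPM in jazD cdk8-1, 513, 551 and 523 CPM in jazD, 163, 148 and 139.5 CPM in cdk8-1, and 67.7, 71.4 and 68.6 CPM in Col-0. No library overlapped with one of another genotype. NSP1 rose 7.64-fold in jazD over Col-0 (2.93 ± 0.05, adjusted p = 1.37e-20, edgeR) and stood in place 21 by adjusted p among all loci. It rose 2.17-fold in cdk8-1 over Col-0 (1.11 ± 0.05, adjusted p = 2.88e-12, edgeR) but fell in jazD cdk8-1 relative to jazD (−0.42 ± 0.05, adjusted p = 6.36e-07, edgeR). The loss of CDK8 thus went with a higher level in one background and a lower one in the other, a difference of −1.53 ± 0.07 (adjusted p = 3.04e-12 for the interaction, edgeR). Even so, jazD cdk8-1 kept 5.73 times the Col-0 level (2.52 ± 0.05, adjusted p = 6.66e-19, edgeR).

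NSP4, whose reads were divided with NSP1, was low throughout. It had 8.12, 9.52 and 8.75 CPM in jazD cdk8-1, 8.00, 7.57 and 8.47 CPM in jazD, 10.9, 8.32 and 8.12 CPM in cdk8-1, and 11.8, 9.89 and 11.4 CPM in Col-0. It fell in jazD relative to Col-0 (−0.46 ± 0.11, adjusted p = 0.00212, edgeR), where NSP1 rose. Its lower level in jazD cdk8-1 than in Col-0 (−0.32 ± 0.11, adjusted p = 0.0277, edgeR) was not called with DESeq2 or on the TPM scale. In cdk8-1 against Col-0 it was not called (−0.28 ± 0.11, adjusted p = 0.0684, edgeR), but without cdk8-1 replicate 1 it was (−0.42, adjusted p = 0.00669, edgeR), as it was without Col-0 replicate 2 (−0.35, adjusted p = 0.0389, edgeR). Counts of NSP1, NSP3 and NSP4 summed, which do not depend on how reads were divided among the 3 genes, rose 6.67-fold in jazD over Col-0 (2.74 ± 0.05, adjusted p = 3.62e-20, edgeR). The same sum rose 1.98-fold in cdk8-1 over Col-0 (0.98 ± 0.05, adjusted p = 1.64e-11, edgeR) and fell in jazD cdk8-1 relative to jazD (−0.41 ± 0.05, adjusted p = 9.00e-07, edgeR).

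NSP2 and NSP3 were near the limit of detection. NSP2, known from seeds, had 1, 1 and 0 counts in the jazD libraries and 0 in the other 9 libraries, where 0 counts allow up to 3 counts per library. NSP3 had 2, 11 and 4 counts in jazD cdk8-1, 4, 2 and 4 in jazD, 1, 3 and 5 in cdk8-1, and 8, 7 and 3 in Col-0. The genotypes overlapped, and no fold is given for either gene.

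NSP5, the most divergent NSP gene (65.4% identical to NSP1 in aligned coding bases), did not follow NSP1. It had 61.8, 58.2 and 62.5 CPM in jazD cdk8-1, 44.2, 47.7 and 44.5 CPM in jazD, 56.4, 63.2 and 46.4 CPM in cdk8-1, and 42.7, 42.3 and 40.4 CPM in Col-0. Its mean levels were higher in the lines without CDK8, with the widest spread in cdk8-1. The lowest cdk8-1 library (46.4 CPM) lay below the highest jazD library (47.7 CPM). NSP5 rose 1.34-fold in jazD cdk8-1 over jazD (0.42 ± 0.08, adjusted p = 0.000192, edgeR) and 1.32-fold in cdk8-1 over Col-0 (0.40 ± 0.08, adjusted p = 0.000479, edgeR). The effects of cdk8-1 in the 2 backgrounds differed by 0.02 ± 0.11 (95% interval −0.24 to 0.27, adjusted p = 0.950, edgeR). Between jazD and Col-0 it was not called (0.12 ± 0.08, 95% interval −0.06 to 0.31, adjusted p = 0.223, edgeR). NSP5 lies in a stretch of chromosome 5, from AT5G44490 to AT5G56910, that was singled out after its values were seen, and 23 of the 926 loci tested there were called and at least 8-fold lower in jazD than in Col-0 (2.48%, against 0.199% of all loci).

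ESP was higher with the jazD mutations and lower with cdk8-1. It had 53.6, 53.0 and 54.8 CPM in jazD cdk8-1, 67.7, 65.9 and 67.6 CPM in jazD, 33.7, 36.4 and 36.3 CPM in cdk8-1, and 44.7, 44.6 and 45.2 CPM in Col-0. All 4 genotypes were apart. ESP rose 1.5-fold in jazD over Col-0 (0.58 ± 0.05, adjusted p = 2.22e-09, edgeR) and 1.52-fold in jazD cdk8-1 over cdk8-1 (0.60 ± 0.05, adjusted p = 6.02e-09, edgeR). It fell by 0.34 ± 0.05 in cdk8-1 relative to Col-0 (adjusted p = 2.41e-05, edgeR) and by 0.32 ± 0.05 in jazD cdk8-1 relative to jazD (adjusted p = 1.43e-05, edgeR). The difference between these effects of cdk8-1 was 0.02 ± 0.07 (95% interval −0.14 to 0.18, adjusted p = 0.886, edgeR).

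ESM1 was lower in each mutant than in Col-0. It had 1107, 1085 and 1038 CPM in jazD cdk8-1, 1407, 1382 and 1342 CPM in jazD, 951, 1018 and 975 CPM in cdk8-1, and 1653, 1490.4 and 1594 CPM in Col-0. It fell by 0.69 ± 0.05 in cdk8-1 relative to Col-0 (adjusted p = 6.03e-10, edgeR), by 0.20 ± 0.05 in jazD relative to Col-0 (adjusted p = 0.00168, edgeR) and by 0.36 ± 0.05 in jazD cdk8-1 relative to jazD (adjusted p = 3.60e-06, edgeR). The effect of cdk8-1 was smaller in jazD than with intact JAZ genes, a difference of 0.33 ± 0.07 (adjusted p = 0.00131 for the interaction, edgeR). A higher level in jazD cdk8-1 than in cdk8-1 (0.13 ± 0.05, adjusted p = 0.0419, edgeR) was at the edge of the threshold and was lost in 9 of the 12 fits that left out 1 library (0.10 to 0.13, adjusted p = 0.057 to 0.195, edgeR).

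**Figure D3:**
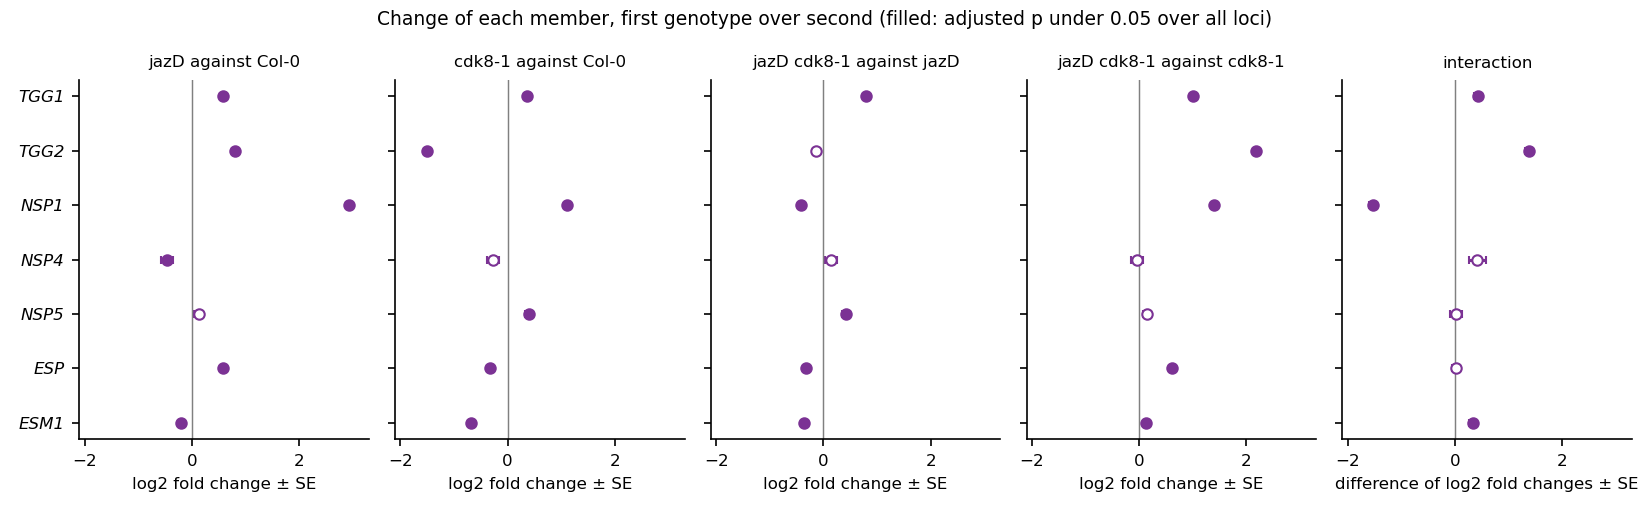
Log2 fold change of the 7 tested genes, first genotype over second, in 4 comparisons and, at the right, the interaction (effect of cdk8-1 in jazD less its effect where JAZ genes are intact). Bars are approximate standard errors and filled points were called, so that NSP1 stands at 2.93 in jazD against Col-0 and at −1.53 in the interaction, and TGG2 at −1.51 in cdk8-1 against Col-0 and at 1.38 in the interaction.

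Counted by comparison, calls among these genes were frequent, and so they were among all loci. In jazD against Col-0, 4 of the 7 tested genes were higher and 2 lower, where 42.8% of all tested loci were called. Against the same Col-0 libraries, cdk8-1 had 3 higher (TGG1, NSP1 and NSP5) and 3 lower (TGG2, ESP and ESM1), with 25.5% of loci called. In jazD cdk8-1 against jazD, 2 were higher (TGG1 and NSP5) and 3 lower (NSP1, ESP and ESM1), with 35.8% of loci called. Relative to cdk8-1, jazD cdk8-1 had 5 higher and 0 lower, with 24.0% of loci called, and NSP4 and NSP5 were not called. Relative to Col-0 it had 5 higher and 2 lower (NSP4 and ESM1), with 32.4% of loci called. The interaction was called for TGG1, TGG2, NSP1 and ESM1, 4 of 7, with 16.5% of loci called. Only 6.87% of all tested loci changed more than 2-fold in jazD against Col-0, and of the 7 genes NSP1 did.

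On the per-length TPM scale the order of the genes was TGG1, TGG2, ESM1, NSP1 in jazD cdk8-1, jazD and Col-0, whereas in cdk8-1 ESM1 stood above TGG2 (840 ± 3.70 TPM for ESM1 and 672 ± 27.2 TPM for TGG2, SD, n = 3). In Col-0, NSP1 (40.6 ± 2.05 TPM) and ESP (39.8 ± 0.723 TPM) overlapped between libraries, so their order there is not resolved. NSP5 followed them at 36.3 ± 1.51 TPM. In jazD the levels had parted, with NSP1 at 294 ± 16.3 TPM, ESP at 56.5 ± 0.340 TPM and NSP5 at 37.5 ± 2.26 TPM. NSP5 exceeded ESP in both lines without CDK8, at 55.5 ± 2.75 TPM against 50.2 ± 1.78 TPM for ESP in jazD cdk8-1 and at 50.9 ± 6.75 TPM against 33.4 ± 1.00 TPM for ESP in cdk8-1.

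The balance between specifier and myrosinase transcripts shifted as well, and the ratios are given as descriptions. The 5 NSP genes and ESP together had 31.3 ± 1.51 TPM per 1000 TPM of TGG1 and TGG2 in jazD cdk8-1, 53.6 ± 4.23 in jazD, 37.5 ± 1.57 in cdk8-1 and 25.2 ± 1.5 in Col-0 (SD, n = 3 each). Thus jazD had the highest ratio in all 3 libraries. NSP1 made up 68.7% ± 0.0964 of the NSP and ESP level in jazD cdk8-1, 75.0% ± 0.590 in jazD, 51.0% ± 2.21 in cdk8-1 and 33.0% ± 0.794 in Col-0. The NSP genes summed exceeded ESP by 6.06 ± 0.0478 times in jazD cdk8-1, 5.95 ± 0.308 times in jazD, 4.49 ± 0.540 times in cdk8-1 and 2.09 ± 0.0477 times in Col-0. ESM1, which opposes nitrile formation, stood at 18.2 ± 0.851 times ESP in jazD cdk8-1, 18.6 ± 0.543 times in jazD, 25.2 ± 0.635 times in cdk8-1 and 32.0 ± 1.60 times in Col-0.

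Across the 12 libraries, which fall into 4 genotypes and share them, the patterns of the genes differed from each other (Pearson correlation of log2 CPM, as a description). TGG2 was most like ESP (0.93) and TGG1 most like NSP1 (0.75), while TGG1 and TGG2 correlated at 0.46, and NSP5 and ESM1 ran against each other (−0.80). Among all tested loci, those most like NSP1 were PYK10 (0.995), a beta-glucosidase gene of ER bodies, AT3G20370 (0.992) and JAL33 (0.988), a jacalin-related lectin gene. Those most like TGG1 were UMAMIT10 (0.977), of a family of amino acid transporters, IRE1-1 (0.964), of the unfolded protein response, and MGP1 (0.964). For NSP5 they were ARF1A1C (0.951), an ADP-ribosylation factor gene, AT4G23870 (0.944) and c-NAD-MDH1 (0.927), a cytosolic malate dehydrogenase gene. For ESM1 they were AT5G33370 (0.985), AT3G55240 (0.985) and AT1G64370 (0.983). The correlation takes no account of the size of a change. In jazD over Col-0, IRE1-1 gave 0.14 ± 0.06 (not called) and MGP1 0.13 ± 0.04, against 0.58 for TGG1. UMAMIT10 gave 0.54 ± 0.13 there. In cdk8-1 over Col-0, IRE1-1 (0.10 ± 0.06) and MGP1 (0.10 ± 0.04) were not called. In jazD cdk8-1 over jazD, ARF1A1C gave 0.19 ± 0.05 and c-NAD-MDH1 0.15 ± 0.05, against 0.42 for NSP5. AT4G23870 gave 0.70 ± 0.13 there.

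Genes that act beside the classical myrosinases were set beside them as lists, chosen with earlier results of these data known. Myrosinase-binding and associated proteins, jacalin-related lectins and GDSL-lipase-like proteins that form complexes with myrosinases or PYK10, were all higher in jazD than in Col-0, 12 of 12, with a median log2 fold change of 3.67, against 0.00 for all tested loci. Of all tested loci, 42.8% were called in that comparison. MBP1, a myrosinase-binding protein gene, had 575, 567 and 565 CPM in jazD cdk8-1, 879, 890.3 and 942 CPM in jazD, 16.6, 18.3 and 21.9 CPM in cdk8-1, and 32.3, 24.1 and 26.8 CPM in Col-0. It rose by 5.03 ± 0.08 in jazD over Col-0 (adjusted p = 2.96e-21, edgeR), GLL23, of the GDSL-lipase-like group, by 4.42 ± 0.07 (adjusted p = 8.98e-22, edgeR) and JAL30, a PYK10-binding lectin gene, by 3.79 ± 0.06 (adjusted p = 1.49e-21, edgeR). MBP2 rose by 3.54 ± 0.07 and MVP1, whose protein is known to bind TGG2, by 1.65 ± 0.05. Several genes of this list are much alike, and their reads may be divided among them. In jazD cdk8-1 relative to jazD, 10 of the 12 fell and 1 rose (median −1.02), with 35.8% of all tested loci called. In cdk8-1 relative to Col-0, 6 rose and 4 fell (median 0.12), with 25.5% of loci called. For 8 of the 12 the effect of cdk8-1 was lower in jazD than with intact JAZ genes, GLL23 (−2.18 ± 0.09) and JAL30 (−1.99 ± 0.08) among them, whereas MBP1 was not called (−0.12 ± 0.12, adjusted p = 0.542, edgeR). The interaction was called for 16.5% of all tested loci.

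Of the 15 beta-glucosidases of the atypical myrosinase clade, whose members include enzymes that cut indole glucosinolates, 7 were tested. In jazD, 5 of these stood higher and 1 lower relative to Col-0, where 42.8% of all tested loci were called. BGLU22, 1 of the 5, was low, with 11, 22 and 24 counts in jazD and 4, 1 and 7 in Col-0. BGLU18, of leaf ER bodies, rose by 4.10 ± 0.06 (adjusted p = 8.98e-22, edgeR), PYK10 by 3.20 ± 0.08 (adjusted p = 1.83e-18, edgeR) and PEN2, of pathogen defence, by 0.51 ± 0.04 (adjusted p = 1.95e-09, edgeR). PYK10 had 285, 271 and 270.4 CPM in jazD cdk8-1, 362, 437 and 385 CPM in jazD, 118, 106 and 114 CPM in cdk8-1, and 36.5, 45.9 and 46.2 CPM in Col-0. Its interaction (−1.91 ± 0.10, adjusted p = 2.49e-11, edgeR) had the sign of that of NSP1. Of the 7 tested genes, 0 were higher and 5 lower in jazD cdk8-1 relative to jazD, with 35.8% of loci called. In cdk8-1 relative to Col-0, 1 was higher and 2 were lower, with 25.5% of loci called. The summed level of the 15 genes was 3301 to 3727 TPM in jazD cdk8-1 and 4507 to 4797 TPM in jazD, against 396 to 454 TPM in cdk8-1 and 414 to 432 TPM in Col-0. BGLU18 made up most of that sum, at 2979.6 to 3393 TPM in jazD cdk8-1, 4135 to 4362 TPM in jazD, 212 to 247 TPM in cdk8-1 and 253 to 275 TPM in Col-0.

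**Figure D4:**
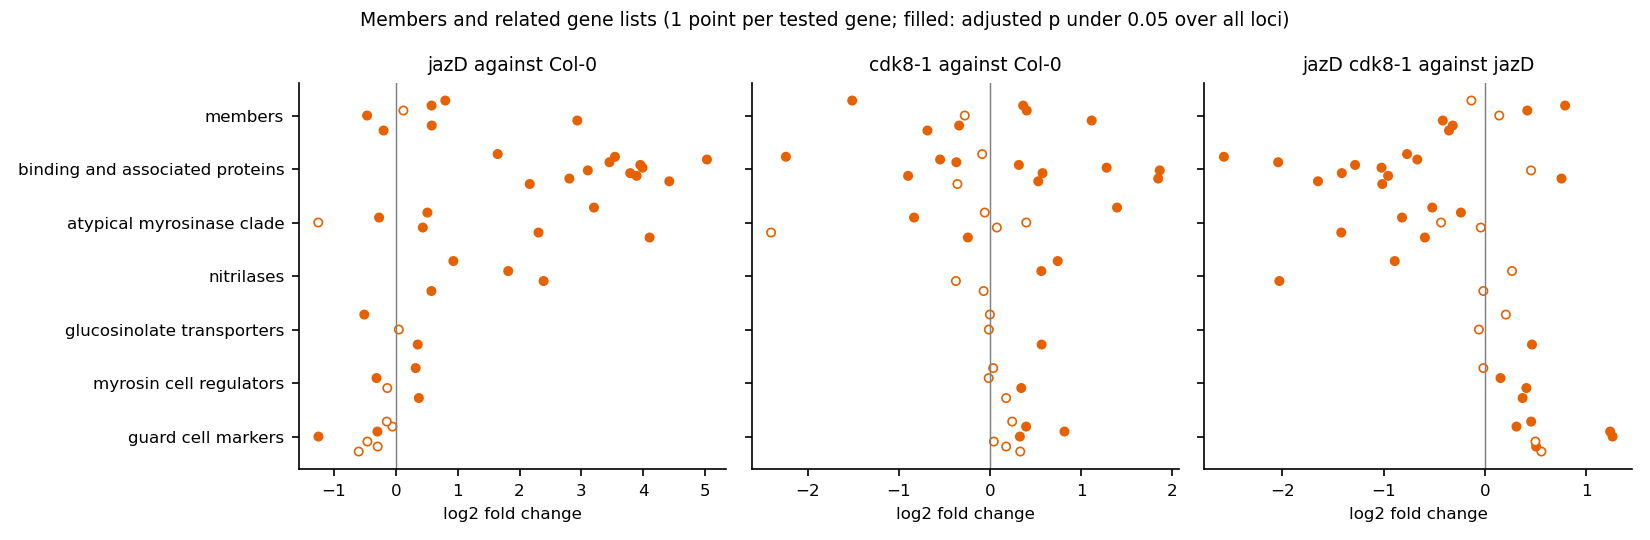
Log2 fold changes of the tested genes of the set (members) and of 6 related lists in 3 comparisons named above the panels, 1 point per gene, filled where called. All 12 binding and associated genes lie above 0 in jazD against Col-0 and 10 of them were called lower in jazD cdk8-1 against jazD, while the genes of the set lie on both sides of 0 in each panel. Of all tested loci, 35.8% were called in jazD cdk8-1 against jazD.

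Markers of the cells that hold TGG1 and TGG2 were measured too. FAMA, the bHLH regulator of both guard cells and myrosin cells, had 43.2, 42.0 and 39.6 CPM in jazD cdk8-1, 34.0, 30.2 and 32.2 CPM in jazD, 29.2, 27.7 and 27.2 CPM in cdk8-1, and 24.7, 27.0 and 22.6 CPM in Col-0. It rose by 0.37 ± 0.07 in jazD over Col-0 (adjusted p = 0.000146, edgeR) and by 0.37 ± 0.07 in jazD cdk8-1 over jazD (adjusted p = 0.000116, edgeR), and in cdk8-1 over Col-0 it was not called (0.18 ± 0.07, adjusted p = 0.0663, edgeR). By mean level its order over the genotypes was that of TGG1, but its step from Col-0 to cdk8-1 was not called. Of FAMA, SCRM, SCRM2 and SYP22, the 4 myrosin cell regulators listed, 2 were higher in jazD relative to Col-0 and 1 lower (SCRM2, −0.31 ± 0.05). Of all tested loci, 42.8% were called there. In jazD cdk8-1 relative to jazD, 3 were higher and 0 lower, with 35.8% of loci called. SCRM2, among the 3, rose by 0.15 ± 0.05, and its libraries overlapped. SYP22 (AT5G46860), one of the higher genes in jazD, lies in the stretch of chromosome 5 that holds NSP5. The summed regulators had 186 to 194 CPM in jazD cdk8-1, 161 to 167 CPM in jazD, 170.2 to 176 CPM in cdk8-1 and 158 to 163 CPM in Col-0.

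Guard cell markers were measured as a list of 7 genes, without FAMA, which was counted with the myrosin cell regulators. FAMA, also a guard cell gene, was higher in jazD than in Col-0 (0.37 ± 0.07). It was also higher in jazD cdk8-1 than in jazD (0.37 ± 0.07) and not called in cdk8-1 against Col-0. In jazD relative to Col-0, 0 of 7 genes were higher and 2 lower, where 42.8% of all tested loci were called, 3 were higher in cdk8-1 than in Col-0 (25.5% of loci called), and 5 were higher in jazD cdk8-1 than in jazD (35.8%). Their summed level was 73.7 to 80.7 CPM in jazD cdk8-1, 39.1 to 45.3 CPM in jazD, 85.2 to 87.6 CPM in cdk8-1 and 63.7 to 68.7 CPM in Col-0, and none of the 7 was at 0 in any genotype. KAT1, a potassium channel gene of guard cells that lies in the stretch of chromosome 5 named above, fell by 1.25 ± 0.07 in jazD relative to Col-0 (adjusted p = 5.55e-12, edgeR), and KAT2 fell by 0.30 ± 0.10 (adjusted p = 0.0258, edgeR). In jazD cdk8-1 relative to jazD, KAT1 rose by 1.26 ± 0.07 and KAT2 by 1.24 ± 0.09. TGG1 rose in jazD against Col-0, in cdk8-1 against Col-0 and in jazD cdk8-1 against jazD. TGG2 rose in jazD, fell in cdk8-1 and was not called in jazD cdk8-1 against jazD. The part of guard cell or myrosin cell numbers in the levels of TGG1 and TGG2 was not tested.

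Flower and seed markers were low. The 4 flower markers summed to at most 1.86 CPM and the 3 seed markers to at most 0.208 CPM in any library. AG, a floral organ identity gene, was lower in jazD than in Col-0 (−1.47 ± 0.45, adjusted p = 0.0126, edgeR). The root markers summed to 25.5 to 37.5 CPM, and of the 2 tested NRT2.1, a nitrate transporter gene, was higher in jazD (2.14 ± 0.32) and SCR, which is also expressed in leaves, was lower (−0.33 ± 0.06). The 3 trichome markers summed to 14.8 to 20.6 CPM, and TRY (AT5G53200), a repressor of trichome fate that also lies in the stretch of chromosome 5 named above, was lower in jazD (−1.29 ± 0.26, adjusted p = 0.000312, edgeR) while GL2 gave 0.09 ± 0.10 (adjusted p = 0.483, edgeR).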

How the data were processed

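RNA from 12 rosette pools was sequenced on a DNBseq platform, per the labels' protocols. The authors deposited expected counts, which RSEM 1.2.25 estimates, and the genome build was TAIR10 (both per the submitters' processing notes). The authors also deposited TPM, which gave the levels between genes. No source used here names the aligner or the strand protocol. Expected counts (96.58% whole) were rounded and tested with edgeR 4.0.16 in R 4.3.3 (filterByExpr, TMM, 1 quasi-likelihood model over 12 libraries with 8 residual degrees of freedom, 2-sided, Benjamini-Hochberg over 19059 loci). The standard error is the absolute log2 fold change divided by the root of its F statistic. Tables carry no coordinates; sequences, positions and identities come from the RefSeq TAIR10.1 genome, joined by locus identifier (32835 of 33323 matched). Alternatives used DESeq2 1.42.0 and limma 3.58.1 on log2(TPM + 0.5). Intervals take the t quantile at the 8 residual degrees of freedom, so they are wider than the edgeR p beside them implies. They cover the model's error only, and 3 against 3 libraries allow no exact permutation p under 0.1.

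The rule for the set names loci and no measured value, but the set and the lists beside it were chosen with earlier results of these data known. Named genes are the 9 of the set, up to 3 per list by adjusted p in jazD against Col-0 and up to 2 in the interaction, a few fixed regulators and enzymes, and the 3 loci most like each of 4 genes.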

Additional observations from a re-analysis of the deposited data

Results flagged for a closer look

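In the set, 4 genes had an effect of cdk8-1 in jazD that differed from its effect with intact JAZ genes, tested as an interaction in the edgeR fit. For TGG2 the effect of cdk8-1 was −0.13 in jazD and −1.51 with intact JAZ genes, a difference of 1.38 (adjusted p = 6.99e-11, edgeR). For TGG1 the effects were 0.79 in jazD and 0.36 with intact JAZ genes, a difference of 0.43 (adjusted p = 0.000252, edgeR). NSP1 was lower by cdk8-1 in jazD (−0.42) and higher with intact JAZ genes (1.11), a difference of −1.53 (adjusted p = 3.04e-12, edgeR). ESM1 was lower by cdk8-1 in both backgrounds, at −0.36 in jazD and −0.69 with intact JAZ genes, a difference of 0.33 (adjusted p = 0.00131, edgeR). Each of these differences kept its call and direction in all 20 alternative fits, including those that left out 1 library.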

How the results depend on the processing

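Counts of called genes of the set stayed within 1.5 times in each comparison under all alternatives: DESeq2 size factors or no filter in edgeR, DESeq2, limma on TPM with pseudocounts of 0.1, 0.5 and 1 or no filter, the replicate block, only the 2 groups compared, and each library left out. On the TPM scale the calls split differently, least so in jazD cdk8-1 against cdk8-1 (48.5% of calls higher on TPM and 53.2% in edgeR). Of the calls in jazD against Col-0, 37.8% were higher there and 51.0% in edgeR, in cdk8-1 against Col-0 69.2% and 45.9%, in jazD cdk8-1 against jazD 75.8% and 47.1%, in jazD cdk8-1 against Col-0 66.9% and 50.4%, and in the interaction 60.4% and 49.3%. No TMM factor was applied to TPM. The median log2 fold change of all loci on TPM was −0.069 in jazD and 0.081 in cdk8-1, both against Col-0. It was 0.136 in jazD cdk8-1 against jazD, −0.007 against cdk8-1 and 0.076 against Col-0, and 0.055 in the interaction. The cause of the different split was not tested. With limma on log2(TPM + 0.5) the 5 NSP genes summed were no longer called in jazD cdk8-1 against jazD (−0.14, adjusted p = 0.0652, limma). In the 4 TPM tests TGG2 had 0.0121 in jazD cdk8-1 against jazD, and GTR2 had −0.0284, −0.0280, −0.0288 and −0.0284 in jazD against Col-0, neither called. TGG2 in jazD cdk8-1 against jazD was called without the filter (adjusted p = 0.0317, edgeR), with DESeq2 (adjusted p = 0.0351), without jazD replicate 2 (−0.19, adjusted p = 0.0171, edgeR) and without cdk8-1 replicate 2 (−0.13, adjusted p = 0.0457, edgeR).

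ESM1 in jazD cdk8-1 against cdk8-1 lost its call with DESeq2 size factors (0.13, adjusted p = 0.0596, edgeR), without the filter (adjusted p = 0.0518, edgeR), with only the 2 groups (adjusted p = 0.0651, edgeR) and without Col-0 replicate 1 or 3, cdk8-1 replicate 1 or 3, any jazD replicate, or jazD cdk8-1 replicate 1 or 2 (0.10 to 0.13, adjusted p = 0.057 to 0.195, edgeR). NSP4 in jazD cdk8-1 against Col-0 lost its call with DESeq2 (adjusted p = 0.0669), on TPM (−0.26 to −0.22, adjusted p = 0.137 to 0.184, limma) and without Col-0 replicate 1 or 3 or jazD cdk8-1 replicate 1 or 3 (−0.32 to −0.28, adjusted p = 0.07 to 0.102, edgeR). The NSP4 interaction was called without Col-0 replicate 2 (0.49, adjusted p = 0.0485, edgeR) or cdk8-1 replicate 1 (0.57, adjusted p = 0.0111, edgeR), and NSP5 in jazD cdk8-1 against cdk8-1 without cdk8-1 replicate 2 (0.24, adjusted p = 0.0153, edgeR). With single libraries left out, values not called ranged across 0: NSP4 in jazD cdk8-1 against cdk8-1 from −0.12 to 0.10, the interactions of NSP5 from −0.10 to 0.12, ESP from −0.0143 to 0.0392 and MBP1 from −0.25 to 0.000599, and in jazD against Col-0 GL2 from −0.00363 to 0.22 and GTR2 from −0.0130 to 0.13. On CPM per kilobase of coding sequence all 9 genes kept their order of level in all 4 genotypes. The share of TGG2 and the ratios of NSP1 to NSP5 and of ESM1 to ESP were compared between these scales in each genotype. Of these values, 4 moved by more than the SD of the TPM values, so the SD of a ratio leaves out its dependence on the scale.

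The replicate numbers did not pair the samples: deviations of 18 same-numbered pairs of libraries correlated at −0.058 to 0.051, none over 0.1, and those of 36 other pairs at −0.066 to 0.066. The fit with the replicate block moved 1 call of the set, ESM1 in jazD cdk8-1 against cdk8-1 (0.13, adjusted p = 0.0594, edgeR). Counting error limits NSP2 and NSP3, which had at most 11 counts in a library.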

Other observations

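Genes for the steps after and around hydrolysis gave a mixed picture. The 4 nitrilase genes, whose enzymes act on nitriles, were all higher in jazD than in Col-0: NIT1 by 0.58 ± 0.04 (adjusted p = 6.05e-10, edgeR), NIT3 by 1.82 ± 0.14 (adjusted p = 1.09e-09, edgeR), NIT4, known for beta-cyanoalanine, by 0.93 ± 0.12 (adjusted p = 2.03e-06, edgeR) and NIT2 by 2.39 ± 0.46 (adjusted p = 0.000231, edgeR). NIT1, NIT2 and NIT3 are similar genes, and reads may be divided among them. The list had a median of 1.37, against 0.00 for all tested loci, of which 42.8% were called. NIT1 made up most of the summed level, with 1173, 1103 and 1098 CPM in jazD cdk8-1, 1145, 1138 and 1129 CPM in jazD, 715, 733 and 733 CPM in cdk8-1, and 798, 731 and 760 CPM in Col-0. For NIT1, the 2 lines with the jazD mutations overlapped with each other and lay above the other 2 genotypes. In jazD cdk8-1 relative to jazD, NIT2 fell by 2.03 ± 0.44 (adjusted p = 0.000953, edgeR) and NIT4 by 0.89 ± 0.12 (adjusted p = 4.74e-06, edgeR). NIT1 and NIT3 were not called there, with 35.8% of loci called. In jazD cdk8-1 against Col-0, NIT1 and NIT3 were higher, while NIT2 (0.36 ± 0.55) and NIT4 (0.04 ± 0.13) were not called, with 32.4% of loci called. In the interaction NIT4 alone of the 4 was called (−1.63 ± 0.17, adjusted p = 6.84e-07, edgeR), with 16.5% of all tested loci called.

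The glucosinolate transporter genes were not moved together. GTR1 was higher in jazD than in Col-0 (0.35 ± 0.06, adjusted p = 2.90e-05, edgeR), GTR3 lower (−0.51 ± 0.15, adjusted p = 0.00901, edgeR), and GTR2 was not called (0.05 ± 0.07, adjusted p = 0.603, edgeR).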
